A study of Mus musculus with 14 samples.

Results

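The arrays of mouse primordial germ cells at embryonic day (E) 10.5 were compared with those at E9.5. The comparison rests on 4 arrays, 2 titled E10.5 and 2 titled E9.5, of the 14 arrays in 7 groups that the series holds, and the arrays were chosen by these titles and not by any measured value. The E9.5 cells came from C57BL/6 embryos. The arrays belong to an earlier study of the same group and were normalized again with the others, per the series' design text. Their RNA was isolated with the RNeasy Kit and their cDNA amplified with 22 cycles of PCR, and their dissection and any sort are not given by the sources used. The E10.5 embryos had BDF1 mothers and stella-EGFP transgenic fathers, a mixed background of B6 and CBA. They were taken from genital ridges by trypsin digestion and sorted by EGFP fluorescence, with RNA from the RNeasy Micro Kit and 12 cycles of initial PCR. Each sample of either age started from 5 ng of RNA, stated to match 500 cells, from embryos of unstated sex, and the replicates are labelled biological. Age, strain, transgene, isolation, RNA kit, PCR cycles and study of origin are each the same within a group and differ between the groups, so they cannot be told apart, and every difference given here is a difference between these groups of arrays.

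Primordial germ cells are the embryonic precursors of eggs and sperm. They are set aside near the base of the allantois, enter the hindgut, and migrate through its wall and the dorsal mesentery to the genital ridges, where the gonads form. Around their arrival they switch on a set of germline genes whose promoters are held methylated in the rest of the embryo, while Hox genes give the surrounding tissues their position along the head to tail axis.

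The promoters of 4 genes that stand for the main differences are printed here, from RefSeq on GRCm38.p6. Each window has 300 bases, 250 before to 50 after the gene's start, 5′ to 3′ on the gene's strand. Capitals mark the E-box CACGTG, which is its own reverse complement, and GCGGGA, the core of an E2F6-type site, on either strand. Dazl had the largest increase of any named gene, Hormad1 and Mael rose and were picked because they hold both motifs, as 4 of 17 rising germline windows do, and Hoxb1 is the Hox gene with the largest decrease.
Dazl, chr17:50293571-50293870, minus strand: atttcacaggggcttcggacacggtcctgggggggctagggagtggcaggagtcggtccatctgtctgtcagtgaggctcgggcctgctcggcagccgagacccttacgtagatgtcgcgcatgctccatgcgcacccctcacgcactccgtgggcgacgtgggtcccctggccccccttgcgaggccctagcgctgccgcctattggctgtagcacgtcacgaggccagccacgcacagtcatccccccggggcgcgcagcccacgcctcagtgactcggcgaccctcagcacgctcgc
Hormad1, chr3:95559427-95559726, plus strand: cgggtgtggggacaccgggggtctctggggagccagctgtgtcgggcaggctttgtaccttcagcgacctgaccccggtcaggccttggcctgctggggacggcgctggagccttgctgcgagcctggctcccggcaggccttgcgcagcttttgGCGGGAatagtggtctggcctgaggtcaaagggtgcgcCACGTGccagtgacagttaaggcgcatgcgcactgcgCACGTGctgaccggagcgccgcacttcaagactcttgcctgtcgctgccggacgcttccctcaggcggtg
Mael, chr1:166238695-166238994, minus strand: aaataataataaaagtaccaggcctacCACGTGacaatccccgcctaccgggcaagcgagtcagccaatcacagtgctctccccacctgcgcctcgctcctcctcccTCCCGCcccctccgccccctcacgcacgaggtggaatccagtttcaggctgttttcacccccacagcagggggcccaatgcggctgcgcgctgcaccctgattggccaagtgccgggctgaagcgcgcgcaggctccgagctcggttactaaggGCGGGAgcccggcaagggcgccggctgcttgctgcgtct
Hoxb1, chr11:96365508-96365807, plus strand: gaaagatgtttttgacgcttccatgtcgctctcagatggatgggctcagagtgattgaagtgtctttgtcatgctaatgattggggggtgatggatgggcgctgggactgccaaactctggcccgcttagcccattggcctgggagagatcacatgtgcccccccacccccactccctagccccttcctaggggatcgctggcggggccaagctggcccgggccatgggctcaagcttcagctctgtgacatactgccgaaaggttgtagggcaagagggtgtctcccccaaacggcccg
The Dazl window held 28 CpG and neither motif. The Hormad1 window held 24 CpG, 2 E-boxes and 1 GCGGGA, and the Mael window 24 CpG, 1 E-box and 2 GCGGGA. The Hoxb1 window held 10 CpG and neither motif. Hoxb9, named below, is not in the promoter table. Of the germline genes defined below, 17 of the 20 that rose had a window, and 7 of them (41.2%) held the E-box. The share was 41.7% (5 of 12) among the germline genes that did not pass the test, 15.5% among all rising genes, 8.51% among all falling genes, 9.02% of 14453 tested genes and 7.15% of all 32851 windows. The E-box thus stood at a like share in the rising and the other germline genes. GCGGGA stood in 41.2% of the rising germline windows, 25% of the others, 29.8% of tested genes and 20.0% of all windows. A match of letters is a description and not a binding site.

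The values are log2 probe set signals, between 0 and 14.04, and 18194 genes were tested with 1 probe set each. Levels are not comparable between genes, since each probe set binds with its own strength. The median of the table was 4.72, and lower levels are called dim. Of the genes, 12188 genes had a mean over the 4 arrays above it. Array medians lay between 4.68 and 4.8 in the 4 arrays, and the number of arrays limits the precision. Across genes, the E9.5 arrays correlated with r = 0.973 and the E10.5 arrays with r = 0.961, while E10.5 replicate 1 and E9.5 replicate 2 correlated with r = 0.976. Genes are not independent replicates, and these values describe the arrays. Among genes above the table median, 1787 differed by over 1 between the E10.5 arrays, and 1489 of these were lower in replicate 2, of which 1354 were also lower in replicate 2 than in replicate 1 at E11.5. Between the E9.5 arrays 987 differed as much. The 3′ probe set of Gapdh exceeded its 5′ probe set, a measure of RNA length, by 1.20 and 0.21 at E9.5 and by 0.44 and 1.38 at E10.5.

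Germ cell genes read bright at both ages. Dppa3, also named stella, whose reporter served for the E10.5 sort, stood at 13.09 and 13.37 at E9.5 and 13.50 and 13.33 at E10.5. Pou5f1, a pluripotency factor kept on in germ cells, stood at 12.69 and 13.09, then 13.07 and 13.02. Kit, the receptor for the survival signal of migrating germ cells, stood at 11.80 and 12.32, then 12.07 and 12.05. The arrays of the 2 ages overlapped for each of these genes. The Y-linked Eif2s3y stood between 9.32 and 10.00 in the 4 arrays, but other Y-linked genes differed more, in opposite directions. Uba1y stood at 7.6 and 7.16, then 9.21 and 9.71 without overlap (difference 2.08, adjusted p 0.181, limma). Kdm5d stood at 8.42 and 7.27, then 7.36 and 5.13 with overlap (difference -1.6, adjusted p 0.273, limma).

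Among all 18194 genes, 193 (1.06%) passed at an adjusted p under 0.05 (limma, two-sided, Benjamini-Hochberg over all genes). Of these, 130 (0.715%) were higher and 63 (0.346%) lower at E10.5. Of the 12188 genes above the table median, 164 (1.35%) passed, 113 (0.927%) higher and 51 (0.418%) lower. Among genes that passed, the change was at least 4-fold in 32 of 63 lower genes, against 31 of 130 higher genes. A gene with a larger SE needs a larger change to pass, so these sizes also depend on the threshold. In 30 rising and 19 falling genes the group with the lower level was dim, so that the fold is a difference of signal and not a ratio of transcripts. The median log2 difference was -0.07 over all genes, and -0.11, -0.11 and -0.025 in low, middle and high genes, equal bins by level of those above the table median. It was 0.01 after quantile normalization and 0.02 after median centring. The 14-array fit pools the spread of all groups, so the SE and adjusted p of a gene are not those of its 4 arrays. With the 14 arrays weighted by their spread, 42 higher and 6 lower genes passed. With the 4 compared arrays alone no gene passed. There, 1129 of the 18194 genes had an unadjusted p under 0.05 (2931 in the 14-array fit, limma). With no difference at all, a share near 0.05 would do so. Without E10.5 replicate 1 there were 513 higher and 1414 lower genes, without E10.5 replicate 2 there were 44 and 7, without E9.5 replicate 1 there were 63 and 3, and without E9.5 replicate 2 there were 104 and 162. The rising genes included 32 that passed whichever array was left out, and the falling genes 1, Greb1l.

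**Figure D1:**
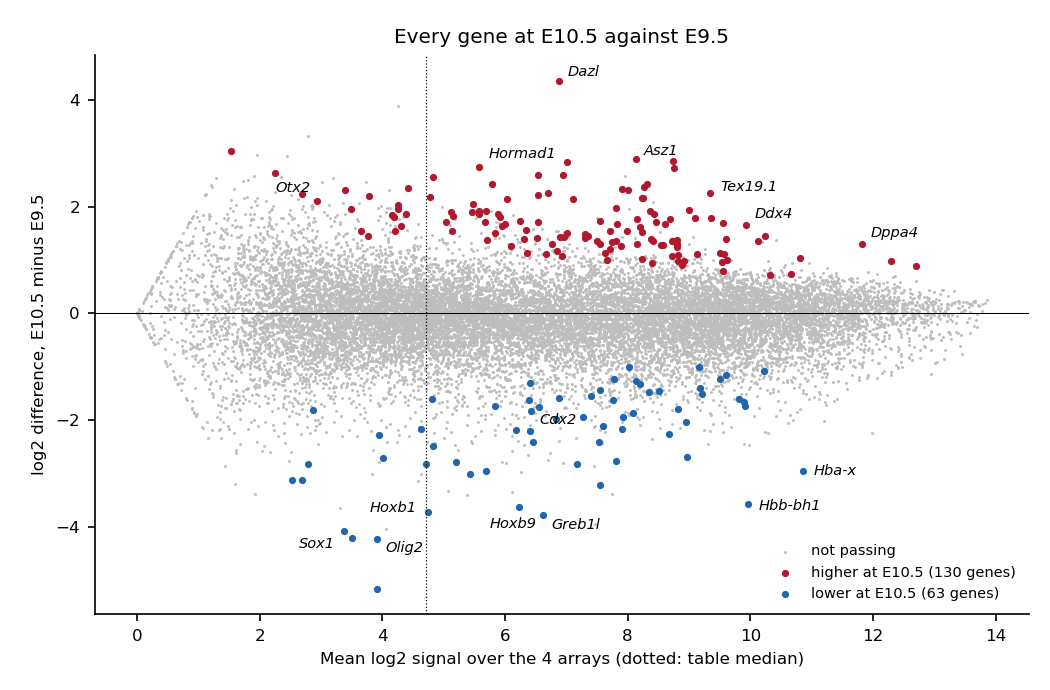
Log2 difference of every gene, E10.5 minus E9.5, against its mean log2 signal over the 4 arrays, with the table median of 4.72 dotted. Red points are the 130 genes higher and blue points the 63 genes lower at E10.5 at an adjusted p under 0.05, and 17 of the higher and 12 of the lower genes lie left of the dotted line.

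Many genes of the germline programme that starts as germ cells enter the gonad rose. Of 37 measured members of this list, 20 were higher at E10.5 and none lower, against 0.715% and 0.346% of all genes. This list and those below were chosen with earlier results of these data known, so such shares describe the lists and do not test them. Both E10.5 arrays stood above both E9.5 arrays in 26 members, which 18.3% of all genes did, and below in 1, which 20.7% of all genes did. In 10 members the ages overlapped, and 3 had a negative difference. The list's median log2 difference was 1.28, against -0.07 over all genes. Of the 37, 30 had a mean above the table median. The 20 were fewer in 3 of the fits that left out an array (14 without E9.5 replicate 1, 16 without E9.5 replicate 2 and 14 without E10.5 replicate 2), and 11 passed in all 4: Dazl, Ddx4, Mael, Hormad1, Slc25a31, Stk31, Asz1, Mov10l1, Sohlh2, Tex19.1 and Gtsf1.

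Dazl, an RNA-binding protein that licenses germ cells for sexual development, stood at 5.71 and 3.70 at E9.5 and at 8.96 and 9.18 at E10.5. It was dim in 1 of the E9.5 arrays and bright in both E10.5 arrays. The difference of 4.37 (SE 0.45), or 20.6-fold in signal, passed with an adjusted p of 0.00121 (limma). The SE pools all groups. The standard deviation of Dazl was 1.42 at E9.5, 0.16 at E10.5 and 0.27 or less in each later group. At E11.5 Dazl read 12.27 and 11.89. Ddx4, the RNA helicase Vasa, was already bright at E9.5, at 9.27 and 8.92, and stood at 10.71 and 10.81 at E10.5. It rose by 1.67 (SE 0.16, 3.17-fold, limma adjusted p 0.00121), with no overlap of the groups.

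Asz1, a mitochondrial scaffold of the piRNA machinery that silences transposons, went from 7.10 and 6.28 to 9.20 and 9.96 (difference 2.89, SE 0.30, limma adjusted p 0.00121). Its other probe set gave 1.18. Mael, another piRNA factor, went from 5.87 and 5.44 to 7.74 and 8.75 (difference 2.59, SE 0.29, limma adjusted p 0.00192). Both E10.5 arrays of each gene lay well above both E9.5 arrays, and for each gene replicate 2 was the higher at E10.5. Mov10l1, an RNA helicase of piRNA production, rose by 2.21, the PIWI protein gene Piwil2 by 1.94, the tudor gene Tdrd12 by 1.86 and Gtsf1 by 1.82. Piwil2 and Tdrd12 failed without E9.5 replicate 1. Among members that did not pass, Tdrd1 (1.33 and 1.83 at E9.5, 1.72 and 2.84 at E10.5) and Piwil4 (3.54 and 2.57, then 3.36 and 3.15) were dim in all 4 arrays, and Pld6 had a difference of -1.12 (adjusted p 0.305, limma).

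Tex19.1, which protects germ cells from transposons, stood at 8.37 and 8.07 at E9.5 and 10.59 and 10.36 at E10.5 (difference 2.26, SE 0.18, limma adjusted p 0.000484). Sohlh2, a transcription factor of early gametogenesis, stood at 7.0 and 7.21, then 9.21 and 9.85 (difference 2.42, SE 0.22). The ages did not overlap for either gene, and the E10.5 arrays of Sohlh2 lay further apart than its E9.5 arrays. The X-linked homeobox genes Rhox5 and Rhox6 rose by 0.89 and 0.98, Rhox6 from 11.90 and 11.71 to 12.82 and 12.75. The call of Rhox5 was lost without E9.5 replicate 2, and that of Rhox6 in each fit that left out an array but the one without E10.5 replicate 1. Rhox13 rose by 2.56, from dim levels of 3.69 and 3.40 to 6.38 and 5.82. Rhox genes are a family of near copies, so a probe set may read more than 1 of them.

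**Figure D2:**
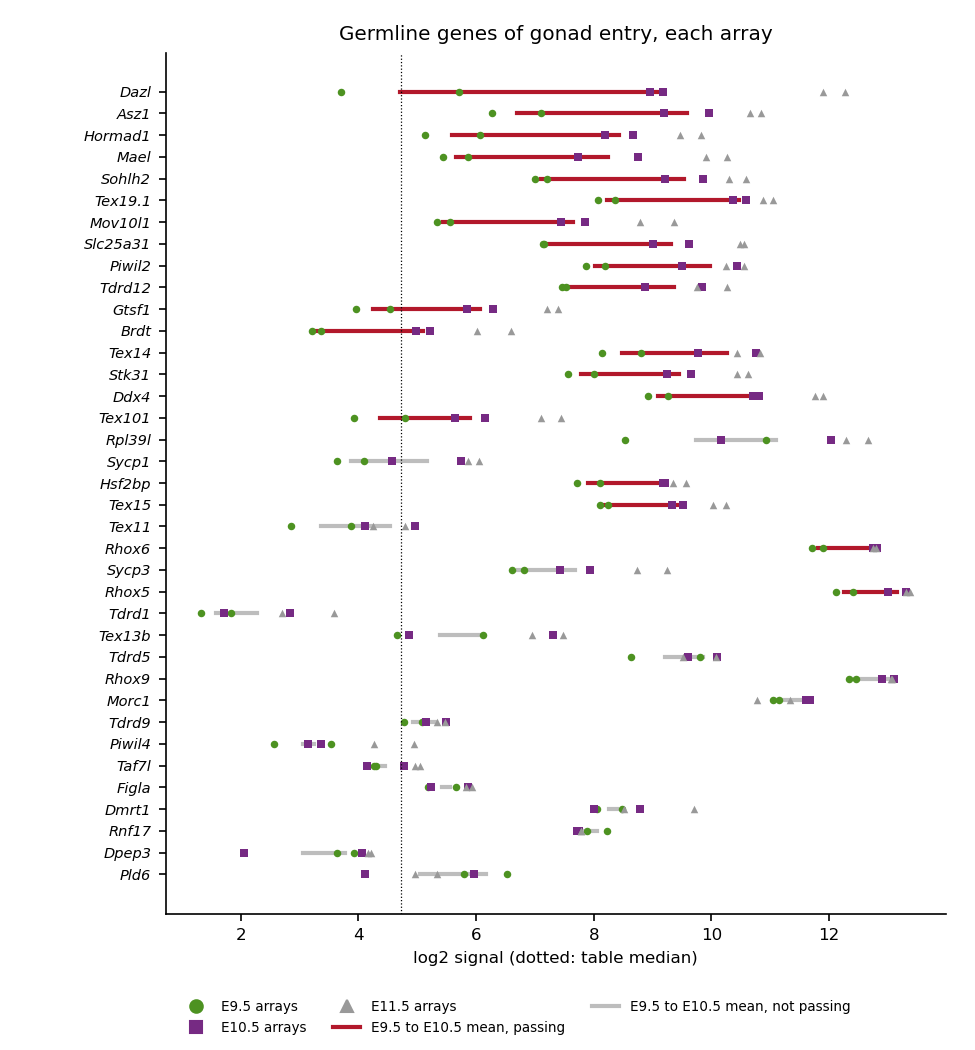
Log2 signal of each of the 37 germline genes of gonad entry in each E9.5, E10.5 and E11.5 array, ordered by the E10.5 minus E9.5 difference. Red bars join the group means of the 20 genes that rose and grey bars those of the 17 that did not pass, and the dotted line is the table median of 4.72.

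Some genes of meiosis, which starts at a later age, were higher at E10.5. Of 29 measured members of the meiosis list, 5 were higher and none lower (0.715% and 0.346% of all genes), and 16 had a mean above the table median. Both E10.5 arrays stood above both E9.5 arrays in 16 members and below in 4 (18.3% and 20.7% of all genes), and the median difference was 0.65. Hormad1, an axis protein of meiotic chromosomes that also belongs to the list of gonad entry, went from 6.06 and 5.14 to 8.20 and 8.67 (difference 2.83, SE 0.29, limma adjusted p 0.00121). Smc1b, a meiotic cohesin subunit, went from 5.79 and 4.71 to 8.16 and 7.52 (difference 2.59, SE 0.32, limma adjusted p 0.00385). The cohesin subunit Stag3 was bright throughout, at 9.57 and 9.34, then 10.79 and 10.83. Tex12 and Syce1, of the central element of the synaptonemal complex, rose by 1.87 and 1.38, and Tex12 failed without E9.5 replicate 1 and without E10.5 replicate 2. Sycp3, the axial element, stood at 6.81 and 6.62, then 7.42 and 7.93, and its difference of 0.96 did not pass (adjusted p 0.155, limma). Stra8, the gatekeeper of meiotic entry, overlapped between the ages (4.35 and 4.48, then 3.58 and 6.03), and Spo11 and Rec8 had differences of -0.88 and -0.34 that did not pass.

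Of 16 measured germ cell identity genes, all above the table median, only Tex19.1 passed (1.06% of all genes did). Both E10.5 arrays stood below both E9.5 arrays in 6 and above in 3 (20.7% and 18.3% of all genes), and the median difference was -0.14, or -0.31 without E9.5 replicate 1. Prdm1, a repressor that founds the lineage, stood at 10.55 and 11.03, then 10.60 and 10.50. Its partners Prdm14 and Tfap2c had differences of -0.27 (adjusted p 0.447) and -0.41 (adjusted p 0.343) by limma, and Dnd1, an RNA-binding protein needed for germ cell survival, -0.46 (adjusted p 0.395). In the pluripotency list 2 of 23 measured members rose and none fell (0.715% and 0.346% of all genes). The list's median of 0.16 was -0.02 without E9.5 replicate 1, -0.12 and 0.35 when E10.5 replicates 1 and 2 were left out in turn. Dppa2 went from 8.51 and 8.90 to 10.48 and 10.32 (difference 1.70, SE 0.19, limma adjusted p 0.00173), and its neighbour Dppa4 from 11.30 and 11.04 to 12.50 and 12.45 (difference 1.31, SE 0.15, limma adjusted p 0.00252). Both encode chromatin-binding proteins that work as a pair, and for both the replicates lay within 0.39 of each other at either age. Sox2 (-0.30) and Nanog (-0.33) did not pass. Nanog stood at 11.50 in E10.5 replicate 1 and 10.30 in replicate 2, a wider gap than that between the ages.

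Most rising genes were on none of the lists: 29 of the 130 were members of any, and 24 of the germline or meiosis lists. The largest of the others above the table median were Phf11d, Gm21283, Trap1a, Rhox13, Nlrp4e, 4930550L24Rik, Nlrp4c, AI662270 and Psma8. Phf11d, a gene of a PHD finger family, went from 7.63 and 6.99 to 10.05 and 10.29 (difference 2.86, SE 0.23, limma adjusted p 0.000484). Trap1a, an X-linked gene known as a tumour rejection antigen, went from 7.92 and 6.87 to 10.29 and 9.96 (difference 2.73, SE 0.31, limma adjusted p 0.00192). Nlrp4e and Nlrp4c rose by 2.42 and 2.33, and Psma8, a testis proteasome subunit, by 2.26. The calls of Nlrp4e and AI662270 were lost without E10.5 replicate 2, that of Gm21283 without E9.5 replicate 2, and that of 4930550L24Rik without E9.5 replicate 1 or E10.5 replicate 2. Phf11d and the Nlrp4 genes have near-identical neighbours, and which copy a probe set reads is uncertain. Among signalling genes, Lefty1, an inhibitor of Nodal, went from 7.53 and 7.28 to 9.35 and 9.29 (difference 1.92, SE 0.38, limma adjusted p 0.0365). Its neighbour Lefty2 had a difference of 2.57 (7.10 and 6.24, then 8.88 and 9.60) that did not pass (adjusted p 0.134, limma). Lefty1 was the 1 rising member of 31 in the BMP and TGF beta list (0.715% of all genes rose). It passed in 1 of the 4 fits that left out an array, without E10.5 replicate 1.

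Hox genes were lower at E10.5 where they differed, and only Hoxb1 and Hoxb9 passed the test (0.346% of all genes fell). Hox genes of paralogue groups 1 to 4, which pattern the hindbrain and neck, had a median difference of -1.75 over 10 measured members. In 7 of the 10 both E10.5 arrays stood below both E9.5 arrays, against 20.7% of all genes. Groups 5 to 8 had a median of -0.78 over 9 members with 5 below, and groups 9 to 13, the most posterior, -0.32 over 14 with 6 below. Over the members above the table median alone, the medians were -1.85 over 4, -0.68 over 6 and -1.14 over 9, so the order of the groups depends on the dim members. No Hox gene had both E10.5 arrays above both E9.5 arrays, which 18.3% of all genes did. Of the 33 members, 19 had a mean above the table median (4, 6 and 9 by group). The signals were also unequal within E9.5: replicate 1 exceeded replicate 2 by a median of 1.27 in groups 1 to 4, 0.53 in groups 5 to 8 and 0.47 in groups 9 to 13, against 0.07 over all genes. Without E9.5 replicate 1 the medians were -1.03, -0.33 and -0.62, and without E9.5 replicate 2 they were -2.38, -1.24 and -0.64. That of groups 9 to 13 was also -0.70 without either E10.5 array. Without E9.5 replicate 1 neither Hoxb1 nor Hoxb9 passed.

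Hoxb1, the most anterior gene of its cluster, stood at 7.21 and 6.00 at E9.5 and at dim levels of 2.64 and 3.13 at E10.5 (difference -3.72, SE 0.77, limma adjusted p 0.0465). It passed in only 1 of the fits that left out an array, without E10.5 replicate 1. Hoxb9, a trunk gene, stood at 8.89 and 7.2, then 4.28 and 4.55 (difference -3.63, SE 0.55, limma adjusted p 0.0104), and it also failed without E10.5 replicate 2. Both E9.5 arrays lay above the table median for both genes and both E10.5 arrays below it. At E11.5 Hoxb1 read 1.24 and 3.30 and Hoxb9 3.18 and 4.14. Hoxb2 stood at 7.47 and 4.82, then 2.94 and 3.31 (difference -3.02, adjusted p 0.0613, limma), and Hoxb6 at 6.85 and 4.77, then 3.15 and 4.54 (difference -1.97, adjusted p 0.247, limma). Hoxa5 (6.95 and 6.88, then 6.48 and 7.04), Hoxa7 (6.89 and 7.17, then 7.11 and 6.81) and Hoxc6 (7.11 and 6.58, then 6.94 and 6.93) overlapped between the ages. The decrease was thus not shared by every Hox gene with signal, although another probe set of Hoxa5 gave -1.90. Hoxb2, Hoxa7 and Hoxc6 were chosen after their values were seen.

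**Figure D3:**
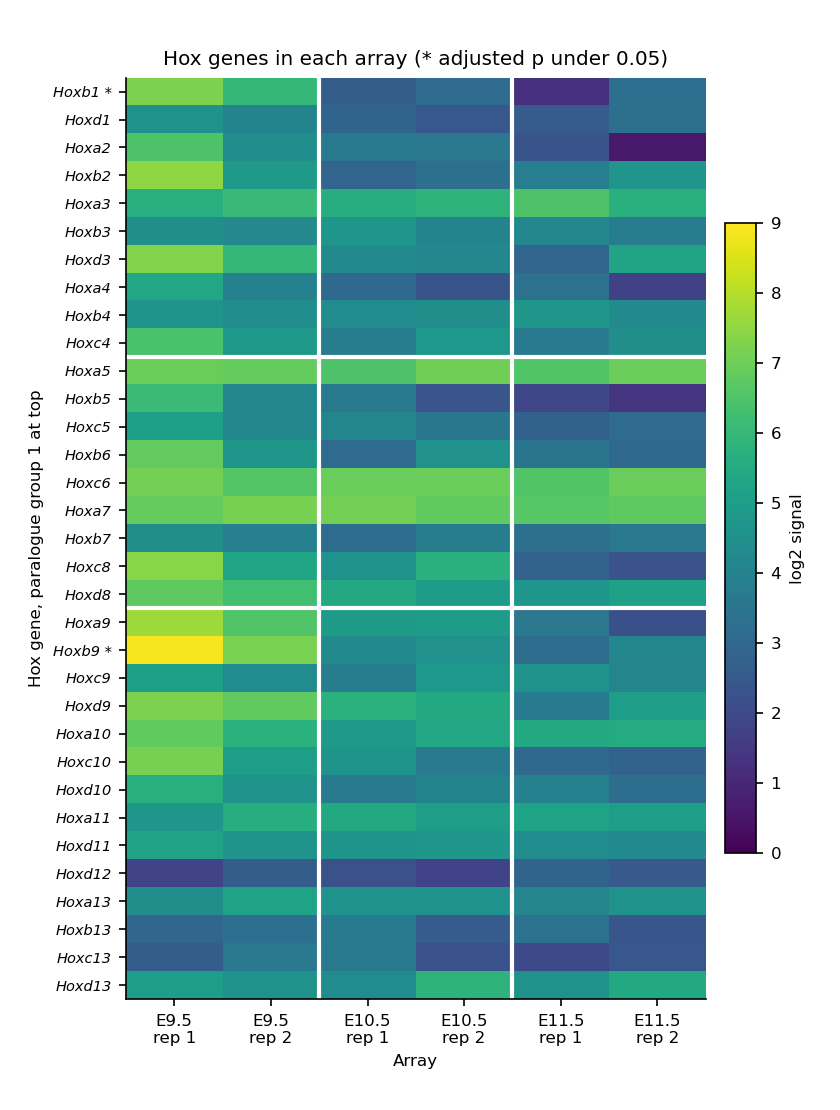
Log2 signal of the 33 measured Hox genes, ordered by paralogue group with white lines after groups 4 and 8, in the 2 arrays of each of E9.5, E10.5 and E11.5. Hoxb1 and Hoxb9, starred, fell at an adjusted p under 0.05, and E9.5 replicate 1 holds most of the brightest cells.

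Of 26 measured cofactors of Hox proteins and other axial regulators, 1 fell and 1 rose (0.346% and 0.715% of all genes). Both E10.5 arrays stood below both E9.5 arrays in 12 and above in 2 (20.7% and 18.3% of all genes), and the median was -0.59. Cdx2, a homeobox gene of the posterior embryo and hindgut that sits upstream of Hox genes, stood at 7.23 and 7.46, then 5.86 and 5.15 (difference -1.84, SE 0.36, limma adjusted p 0.0369). The replicates of E9.5 lay within 0.23 of each other and well above both E10.5 arrays, and at E11.5 the gene read 3.58 and 4.54. Cdx1 (5.74 and 5.54, then 5.92 and 5.38) overlapped. Otx2, a head and forebrain homeobox gene, rose by 2.11 (SE 0.38, limma adjusted p 0.0233), but between dim levels of 2.23 and 1.52 and of 3.81 and 4.16. Chosen after their values were seen, Nkx1-2 and Sp8, both active in the tail bud, fell by 1.94 (8.94 and 8.85, then 7.01 and 6.90) and by 1.73 (6.67 and 6.75, then 5.21 and 4.75). Another probe set of Nkx1-2 gave -0.42. Over the 26 list members, E9.5 replicate 1 exceeded replicate 2 in 18, by a median of 0.42, against 0.07 over all genes. Unlike Hoxb1 and Hoxb9, the 3 genes Cdx2, Nkx1-2 and Sp8 differed little between the E9.5 arrays. Even so, these 3 passed in 1 of the fits that left out an array, without E10.5 replicate 1, and Otx2 failed without E9.5 replicate 2 and without E10.5 replicate 2.

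Among markers of other tissues, 2 embryonic globin genes and 3 neural genes fell, while most markers did not pass. In bulk RNA, fewer cells of a type and less of its RNA per cell cannot be told apart. Of 11 measured red blood cell markers, 2 fell (0.346% of all genes) and none rose. Both E10.5 arrays stood below both E9.5 arrays in 7 (20.7% of all genes) and above in none (18.3%). The median difference was -0.79, and -0.63 without E9.5 replicate 1, -1.30 without E9.5 replicate 2, -1.29 and -1.22 when E10.5 replicates 1 and 2 were left out in turn. Hbb-bh1, an embryonic beta globin, stood at 12.73 and 10.78, then 8.51 and 7.85 (difference -3.58, SE 0.55, limma adjusted p 0.011). Hba-x, an embryonic alpha globin, stood at 12.71 and 11.97, then 9.73 and 9.03 (difference -2.96, SE 0.60, limma adjusted p 0.0434). The E9.5 globin levels were near the top of the scale, all 4 arrays stood above the table median for both genes, and at E11.5 Hbb-bh1 read 5.18 and 6.18. Hbb-y went from 13.40 and 12.83 to 11.02 and 10.72 without overlap, and its other probe sets gave -2.27 and -2.49. Its difference of -2.245 did not pass (SE 1.91, adjusted p 0.576, limma). That SE pools all groups, and the standard deviation of Hbb-y was 0.403 at E9.5 and 0.212 at E10.5. In the later groups it lay between 1.259 (E11.5) and 3.995 (E13.5 male). The log2 of the list's summed signal was 14.61 and 13.70 at E9.5 and 11.77 and 11.44 at E10.5. Hba-a1, an adult globin, was at or near 0 in all 4 arrays, and the erythroid regulators Gata1 and Klf1 overlapped between the ages. Neither Hbb-bh1 nor Hba-x passed without E9.5 replicate 1 or without E10.5 replicate 2, and Hba-x also failed without E9.5 replicate 2.

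Of 20 measured neural and neural crest markers, 3 fell (0.346% of all genes) and none rose. In 7 the E10.5 arrays stood below without overlap (20.7% of all genes), in none above (18.3%), and in 13 the ages overlapped. The median was -0.65. Sox3, a neural progenitor factor, stood at 9.24 and 8.23, then 6.73 and 5.92 (difference -2.41, SE 0.36, limma adjusted p 0.00906), though its second, dim probe set gave 0.01. Olig2, of motor neuron progenitors, stood at 7.4 and 4.67, then 1.40 and 2.20 (difference -4.24, SE 0.72, limma adjusted p 0.0169). Sox1, of the early neural plate, stood at 5.95 and 4.90, then 0.58 and 2.09 (difference -4.09, SE 0.69, limma adjusted p 0.0169). Olig2 and Sox1 were dim at E10.5, and the second, dim probe set of Sox1 gave 0.70. The calls of Olig2, Sox1 and Sox3 were lost without E9.5 replicate 1, and those of Olig2 and Sox3 also without E10.5 replicate 2. Replicate 1 of E9.5 exceeded replicate 2 in 18 of the 20 markers, by a median of 1.24. The list's median was -0.21 without E9.5 replicate 1, -1.73 without E9.5 replicate 2, -0.97 and -0.35 when E10.5 replicates 1 and 2 were left out in turn. The log2 summed signal of the list was 13.55 and 13.16 at E9.5 and 13.07 and 12.47 at E10.5. One member, Sox2, is itself a germ cell gene. It read 12.62 and 12.78, then 12.64 and 12.16, and made up most of this sum in each array, so the sum says little about the other markers. Pax6 (7.37 and 6.31, then 7.17 and 7.02) and the neuronal gene Stmn2 (7.21 and 5.15, then 7.23 and 6.23) overlapped.

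The 24 measured mesenchyme and matrix markers had no passing member (1.06% of all genes passed). Their median was -0.80, with 9 below without overlap (20.7% of all genes) and 1 above (18.3%). Twist1 (8.73 and 6.08, then 4.56 and 5.45) and Col3a1 (10.51 and 9.10, then 9.41 and 8.67) had differences of -2.40 (adjusted p 0.177, limma) and -0.77 (adjusted p 0.402, limma). Replicate 1 of E9.5 was again the higher, by a median of 0.94, and the list's median was -0.37 without it, -1.55 without E9.5 replicate 2 and -0.51 without E10.5 replicate 2. The log2 summed signal was 13.96 and 13.63, then 13.66 and 13.11. Of 20 hindgut and endoderm markers, Cdx2 alone passed (0.346% of all genes fell), and the median was -0.42. The epithelial keratins Krt8 (8.43 and 7.66, then 6.12 and 6.57) and Krt18 (9.85 and 9.47, then 8.74 and 8.75) were lower without overlap but short of the threshold (adjusted p 0.0878 and 0.133, limma). Shh (7.22 and 6.42, then 6.41 and 6.89) overlapped. The log2 summed signal was 11.57 and 11.28, then 10.54 and 11.02.

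No member passed among 17 endothelial, 19 coelomic and gonadal somatic, 20 muscle, 14 white blood cell or 10 surface ectoderm markers (1.06% of all genes did). The medians of these lists lay between -0.24 and 0.17. The endothelial median was -0.41 and 0.29 when E10.5 replicates 1 and 2 were left out in turn, and that of white blood cells in the same fits was 0.41 and -0.40. The muscle median was -0.67 with the mean of all probe sets and -0.76 with the second probe set. Actc1, a heart muscle actin, had a difference of -1.13 (9.57 and 8.71, then 7.85 and 8.17, adjusted p 0.199, limma). Wt1, a marker of the coelomic epithelium of the genital ridge, overlapped (5.62 and 4.10, then 5.92 and 4.92). The white blood cell markers C1qa and C1qc read 0 in at least 1 of the 4 arrays. Of 12 mesonephros markers Lhx1 alone passed (0.715% of all genes rose). It went from 5.75 and 5.48 to 7.13 and 6.90 (difference 1.40, SE 0.20, limma adjusted p 0.00869). Its mean was 8.78 at E11.5. At E12.5 and E13.5 it was 9.99 and 10.27 in male and 8.155 and 7.32 in female germ cell arrays. Which cells carried Lhx1 was not tested. The part of other cells in the decreases was not tested.

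**Figure D4:**
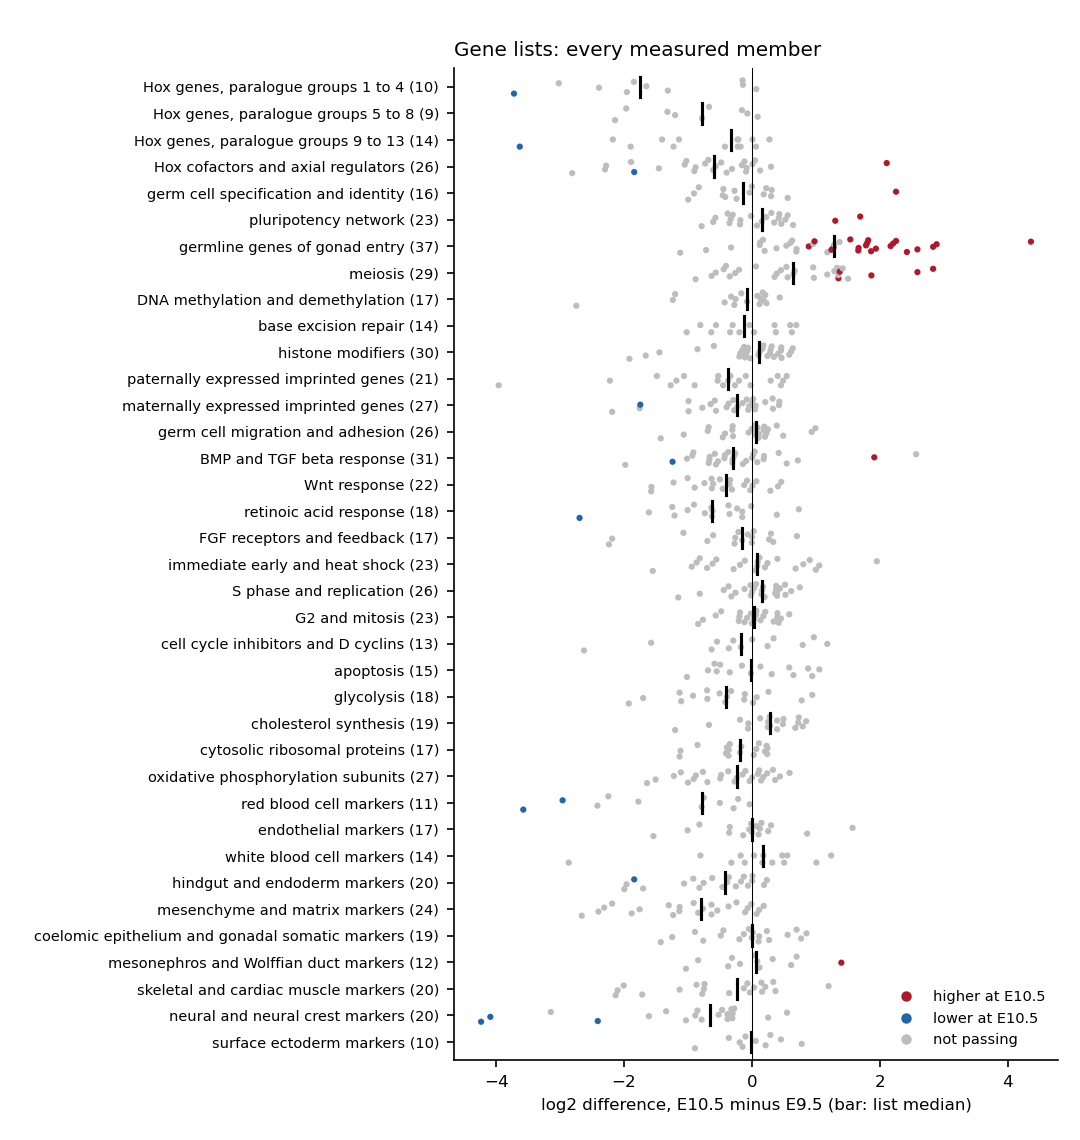
Log2 difference, E10.5 minus E9.5, of every measured member of 37 gene lists, with the number of members in brackets and the list's median as a bar. Red and blue points passed at an adjusted p under 0.05. The germline list stands furthest right with a median of 1.28, and Hox groups 1 to 4 furthest left with -1.75.

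The largest decreases also held genes on no list, since only 11 of the 63 falling genes were list members. Greb1l, a coactivator of retinoic acid signalling that is needed in kidney development, stood at 9.15 and 7.86, then 4.78 and 4.67 (difference -3.78, SE 0.39, limma adjusted p 0.00121). The groups stood far apart and the call held whichever array was left out, but its second, dim probe set gave 0.31. Macroh2a2, a histone variant of repressed chromatin, stood at 9.97 and 8.36, then 6.28 and 5.6 (difference -3.23, SE 0.47, limma adjusted p 0.00883), and failed only without E10.5 replicate 2. Sfrp2, a secreted Wnt modulator, fell by 2.84, the integrin subunit gene Itgb8 by 2.79 and Fbn2, an elastic fibre protein of embryonic mesenchyme, by 2.77, although another probe set of Fbn2 gave -0.47. Kbtbd11, the arginase gene Arg1, Klf15 and Tox3 fell by 3.0, 2.95, 2.48 and 2.41. The calls for these 7 were lost without E9.5 replicate 1, and without E10.5 replicate 2 as well, and that of Klf15 also without E9.5 replicate 2. Of the 51 falling genes above the table median, 43 were higher in replicate 1 of E9.5 than in replicate 2, by a median of 0.53. This held for 55.1% of all genes above that median, by a median of 0.06.

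**Figure D5:**
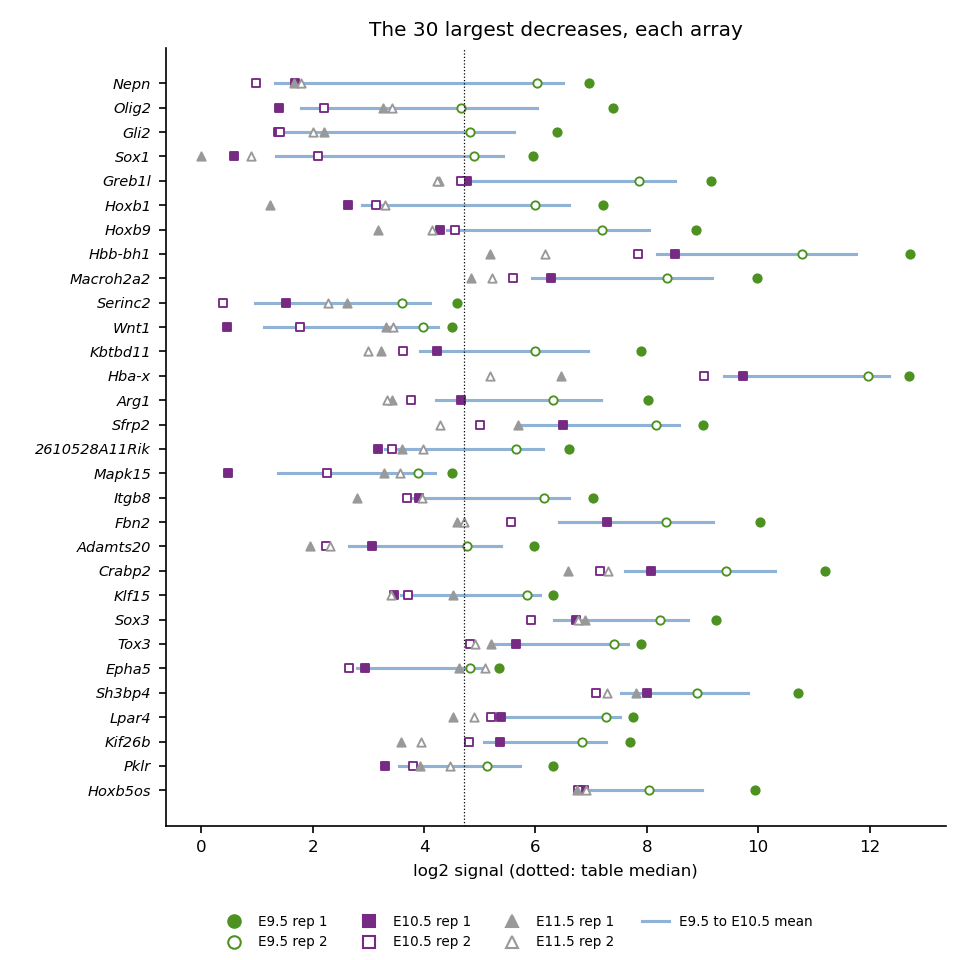
Log2 signal in each array of the 30 genes with the largest decreases among the 63 that fell, dim ones included. Circles are E9.5, squares E10.5 and triangles E11.5, filled for replicate 1 and open for replicate 2, and the dotted line is the table median of 4.72. The filled circle lies right of the open one in all 30 genes.

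The retinoic acid list had 1 falling member of 18 (0.346% of all genes), none rising and 9 below without overlap (20.7% of all genes). Its median was -0.62, and -0.39 without E9.5 replicate 1, -0.33 with the mean of all probe sets and -0.29 with the second probe set. Crabp2, which carries retinoic acid to its receptors, stood at 11.19 and 9.43, then 8.07 and 7.16 (difference -2.70, SE 0.50, limma adjusted p 0.0266), and failed without E9.5 replicate 1 and without E10.5 replicate 2. Aldh1a2, the main embryonic enzyme of retinoic acid synthesis, had a difference of -1.25 (10.26 and 9.20, then 8.85 and 8.12, adjusted p 0.135, limma). The receptor gene Rara stood at 6.11 and 6.09, then 5.86 and 5.88, a small difference without overlap (-0.23, adjusted p 0.706, limma). In the BMP and TGF beta list Msx1, a BMP target, fell from 8.29 and 8.50 to 7.30 and 7.01 (difference -1.24, SE 0.23, limma adjusted p 0.0243), and passed in 1 of the fits that left out an array, without E10.5 replicate 1. Id1 had a difference of -1.02 that did not pass (adjusted p 0.184, limma), and Id3 stood at 11.65 and 11.65, then 11.83 and 11.48.

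Genes that keep or remove DNA methylation held no passing member among 17 measured (1.06% of all genes passed), with a median of -0.08. Uhrf1, which brings the maintenance methyltransferase to newly copied DNA, stood at 9.25 and 6.89, then 6.59 and 4.06. Its difference of -2.75 (SE 0.86, adjusted p 0.184, limma) was close to the gap between replicates, which was 2.36 at E9.5. Dnmt1 stood at 12.17 and 12.23, then 12.23 and 11.62, and Tet1 at 10.41 and 10.43, then 10.96 and 10.12. Both overlapped. Dnmt3b, a de novo methyltransferase, had a difference of -1.20 (adjusted p 0.342, limma) and Tet2 one of -1.24 (adjusted p 0.355, limma). Of imprinted genes, 1 of 27 maternally expressed and none of 21 paternally expressed members passed (1.06% of all genes), with medians of -0.23 and -0.37. Grb10, a growth inhibitor, fell from 11.22 and 10.34 to 9.08 and 8.99 (difference -1.75, SE 0.29, limma adjusted p 0.0154), while its second probe set gave 0.02. The call was lost without E9.5 replicate 1 and without E10.5 replicate 2. Both E10.5 arrays stood below both E9.5 arrays in 13 of the maternal and 11 of the paternal list, against 20.7% of all genes. Without E10.5 replicate 1 the paternal median was -0.62, and without E9.5 replicate 1 the maternal one was -0.12.

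Among 26 genes of germ cell migration and adhesion none passed (1.06% of all genes did), and the median was 0.07. Cxcr4, the receptor for the chemokine that guides germ cells, was dim in 3 of the 4 arrays (4.84 and 3.83, then 3.09 and 3.45). Cdh2, N-cadherin, had a difference of -1.43 (8.0 and 7.62, then 6.62 and 6.15, adjusted p 0.0613, limma), while Cdh1, E-cadherin, stood at 11.33 and 11.49, then 11.10 and 11.12. Of all 38 lists, 24 had no passing member. With 1.06% of all genes passing, a short list can hold none without differing from other genes. Among the 24 were the lists of S phase, G2 and mitosis, apoptosis, glycolysis, cholesterol synthesis, ribosomal proteins and oxidative phosphorylation. The medians of these 7 lay between -0.40 and 0.29, and single arrays moved them. Glycolysis (-0.40) was at -0.66 and -0.14 when E10.5 replicates 1 and 2 were left out in turn. In the same fits oxidative phosphorylation was at -0.43 and 0.08 and ribosomal proteins at -0.46 and 0.09. Cholesterol synthesis reached 0.54 without E10.5 replicate 1, and G2 and mitosis lay at -0.14 and 0.24 without the one or the other E9.5 array.

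The levels at the later ages were set beside these differences, and they cannot tell age apart from the strain and protocol of the E9.5 arrays. E10.5 arrays belong to the later ages' dissections and protocol, and the genes were chosen on the E9.5 and E10.5 arrays, so the levels are given side by side as a description with no test. The E11.5 mean exceeded the E10.5 mean in 110 of the 130 rising genes and lay under it in 45 of the 63 falling genes. Shares over all genes were not worked out for these counts. Of the rising genes, Dazl, Mael and Smc1b were higher again at E11.5, and Dppa2 (10.36 and 10.17 at E11.5) was not. All 10 later arrays stood above both E9.5 arrays in 105 rising genes (80.8%, against 8.93% of all genes). They stood below in 46 falling genes (73%, against 9.89%). Other falling genes were high again, with E13.5 means of 8.85 for Greb1l and 7.595 for Cdx2 in females and 9.505 for Sfrp2 in males.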

How the data were processed

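Total RNA was amplified by PCR and hybridized to Affymetrix arrays, per the labels' protocols. The deposited values are log2 probe set signals that the authors normalized over all 14 arrays together, per the series' design text. The sources used here do not name the software or the summarization, and the values themselves showed the log2 scale. Of 45101 probe sets, 34958 had 1 gene symbol, 932 several and 9211 none (64 controls), and 34754 matched RefSeq. Each of 18194 genes took its probe set with the highest mean. limma 3.58.1 in R 4.3.3 fitted 7 group means over 14 arrays (7 residual degrees of freedom) with an intensity trend. The E10.5 minus E9.5 contrast was two-sided, adjusted by Benjamini-Hochberg. The median SE above the table median was 0.28. Data for this contrast were simulated with independent noise, using each gene's spread over all 14 arrays for every group. The fit over 18194 genes recovered 24.2%, 82.1% and 97.0% of log2 changes of 1, 2 and 3, with 7 false calls. Deviations that genes or arrays share, and a wider spread in the compared arrays, were left out. Recovery in the real arrays may therefore be lower. Promoter windows were taken from RefSeq.

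Members and 38 gene lists (816 entries, 74 matched to no measured gene, Nanos3 and T among them) were chosen with earlier results of these data known. Named were 15 rising and 15 falling genes of largest change (passing, at least 2-fold, no overlap, mean above the table median), up to 6 passing or 3 nearest members of a list, and a fixed set. Other members were chosen after their values were seen. The 16 alternatives are in the closing section.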

Additional observations from a re-analysis of the deposited data

How the results depend on the processing

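Counts of higher and lower genes (130 and 63 in the reported fit) moved with the spread model and with single arrays. They were 81 and 39 without the intensity trend, 42 and 6 with array weights, and 0 and 0 with the 4 compared arrays alone (1129 genes at an unadjusted p under 0.05, limma) or the 6 unsexed arrays (1561), fits with fewer samples to estimate the spread. Lower genes were 38 with the mean of all probe sets and 33 with the second probe set. Leaving out 1 array gave 44 to 513 higher and 3 to 1414 lower genes, with the lone array of an age assumed to vary like the other groups. The ages did not overlap in any of the 193 genes, so leaving out 1 array could not turn their direction. Higher genes made up 67.4% of calls. After quantile normalization they were 71.9% (161 higher, 63 lower) and after median centring 74.3% (159 higher, 55 lower).

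The labels do not say that samples of the same number share a source. With the replicate block 116 genes were higher and 55 lower, 114 and 49 of them called without it. Deviations of same-numbered arrays correlated at 0.38 between E9.5 and E10.5, and between -0.45 and 0.60 over all pairs of groups.

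The sign turned with the second probe set for Greb1l (0.31), Sox3 (0.01), Sox1 (0.70), Grb10 (0.02), Dnmt3b (0.11), Tet2 (0.28), Kdm6b (0.18), Kmt2d (0.14), Ror2 (0.29), Jund (0.06), Bcl2l11 (-0.015), Pfkp (-0.28) and Eif2s3y (-0.17). It turned with the mean of all probe sets for Bcl2l11 (-0.14), Lss (-0.27), Dnmt3a (0.017) and Eif2s3y (-0.083). Leaving out 1 array gave -0.76 to 0.04 for Krt5, -0.045 to 0.35 for Pou5f1, -0.93 to 0.27 for Nanog, -0.58 to 0.03 for Dnmt1, -0.30 to 0.54 for Tet1, -0.43 to 0.12 for Hoxa5, -0.93 to 0.09 for Hoxc9, -0.33 to 0.35 for Eif2s3y and -0.20 to 1.32 for Wt1. The cause was not tested. Among the named genes, 1897 other values kept sign and side of the threshold, 220 fell short of it and 48 newly passed. With 2 arrays a group, changes under 2-fold were mostly below what the fit could call.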
